A study of Mus musculus with 2 samples.

Results

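Nnmt and 7 further genes of NAD and methyl group metabolism (Nampt, Nnt, Nadk2, Nmnat3, Mat2a, Ahcy and Sirt3) were followed in brown fat of mice with and without cold exposure. The 8 genes, of 15522 with at least 1 read, were picked by name with their read counts in these same libraries already known. Their differences between the libraries are therefore given as a description, without a test. Reads of all annotated transcripts of each gene were used, per transcript and summed to the gene. All 8 had reads in both libraries, on 30 of their 56 annotated transcripts. The control group was interscapular brown adipose tissue of male wild type C57BL/6N mice aged 20 weeks. The cold group was the same tissue from mice of the same sex, strain and age that spent 24 h at 4 °C, 1 animal per cage, with RNA of 3 mice pooled. Neither group carried a transgene or a deleted gene. General housing was at 22 to 24 °C. The number of mice behind the control library is not given in the sources used here. Treatment text of both samples describes the cold exposure, which goes against the control characteristic, and the groups were taken from that characteristic. Each group was 1 library, so there was no spread between replicates to measure.

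NAD carries electrons in the mitochondria that make heat in brown fat, and it is also consumed by sirtuins and PARPs, which release nicotinamide. Nampt and then an Nmnat enzyme rebuild NAD from that nicotinamide, whereas Nnmt takes nicotinamide out of the loop by adding a methyl group from S-adenosylmethionine (SAM). Mat2a makes SAM, and Ahcy removes what is left once the methyl group has been given away, so these enzymes stand at the junction of the NAD loop and the methyl group supply.

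The libraries were made by nanopore direct RNA sequencing, in which a native poly(A)+ RNA molecule is read from its 3′ end, so that 1 read stands for 1 molecule. Reads numbered 1698124 for the control and 1215617 for the cold library. Levels are given as reads and as RPM, the reads per 1000000 reads of the library. Ratios of cold to control were scaled by edgeR TMM (a trimmed mean over genes that sets the library sizes), and the range after each value is its exact Clopper-Pearson 95% interval. These intervals cover counting error only and compare 2 libraries, not 2 conditions. In whole tissue, fewer cells of a type and less RNA per cell cannot be told apart. Among 7529 genes with 20 or more summed reads, of which 14 are transcripts without a gene match counted singly, the median log2 ratio was -0.00, with quartiles of -0.35 and 0.34. The tissue label was checked against 12 brown adipocyte markers, all of which had reads. Ucp1, which lets protons leak to make heat, had 14860 control and 14526 cold reads and was 1.21-fold higher in the cold library once scaled (1.18 to 1.23). Of the 12, 5 had an interval of the ratio above 1 and 2 below it, where each held for 11.3% of all genes. Ppargc1a, a coactivator of mitochondrial genes, had 27 and 132 reads and a ratio of 6.03 (3.96 to 9.49). Dio2, which activates thyroid hormone, was 5.94-fold higher (4.47 to 8.0), the fatty acid elongase Elovl3 was 5.01-fold higher (4.25 to 5.93), and Cidea was 1.31-fold higher (1.25 to 1.38). Cox8b was 1.39-fold lower (1.32 to 1.46) and Adipoq, the hormone adiponectin, was 1.52-fold lower (1.36 to 1.70). The 20 skeletal muscle markers were all higher in the cold library, and together took 0.0474% of control and 0.221% of cold reads.

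Among the 8, Nnmt stood out, with 32 control and 296 cold reads. Nampt had 315 and 202, Sirt3 122 and 97, Mat2a 86 and 76, Nadk2 52 and 37, and Ahcy 31 and 16. Nmnat3 and Nnt were scarce, with 15 and 5 and with 8 and 11 reads. The intervals of the 2 libraries' levels lay far apart for Nnmt alone and overlapped for the other 7 genes. The 95% interval of the ratio lay above 1 for Nnmt, below 1 for Nampt, and held 1 for the other 6. Among all 7529 genes it lay above 1 for 11.3% and below 1 for 11.3%. Nnmt was the 1 member at least 2-fold apart with an interval free of 1. That held for 4.2% of all genes in the higher direction and 4.08% in the lower. Since these genes were picked with the contrast known, nothing is read from the count. The ratio was below 1 for 5 members. A minimum of 20 summed reads, used for counts over genes, kept 7 of the 8, with Nmnat3 just inside at 20 reads and Nnt just outside at 19.

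**Figure D1:**
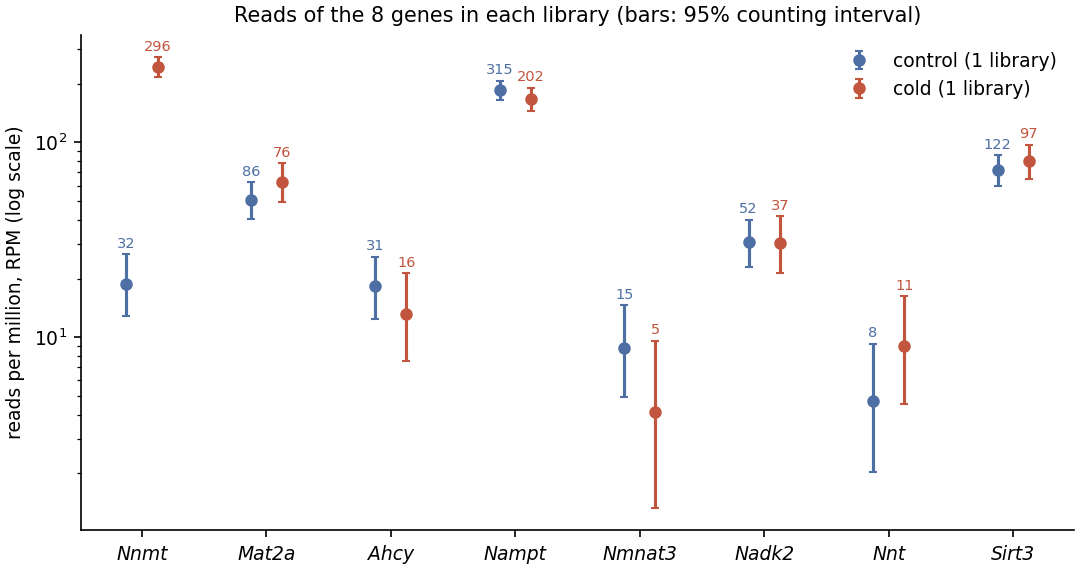
Level of each gene in RPM (log axis) in the control library (blue) and the cold library (red), 1 library each, with bars for the 95% counting interval and the number of reads printed above each point. The points of Nnmt, 18.8 and 243 RPM, are the farthest apart, and the bars of the other 7 genes overlap.

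Nnmt encodes nicotinamide N-methyltransferase, which joins the methyl group of SAM to nicotinamide and leaves methylnicotinamide and S-adenosylhomocysteine. On GRCm38 it lies on the minus strand of chromosome 9, from 48591877 to 48605153. All 5 of its annotated transcripts had reads. The 2 coding forms part inside the last exon, and the RNA on both sides of that point is shown because this is what separates a read of the full enzyme from a read of the short form. Each line runs 5′ to 3′, with the bases after the parting point in capitals. The first 15 bases are chr9:48592314-48592328 on the minus strand in both forms. The capitals are chr9:48592299-48592313 in Nnmt-201 and chr9:48592168-48592182 in Nnmt-202, and all 30 bases are coding in either form.
Nnmt-201: cgtgcaatcaagcagGTACTAAAGTGTGAT
Nnmt-202: cgtgcaatcaagcagGAACCTGGGCAGTCT
Nnmt-201 has 3 exons and 1043 bases and encodes 264 residues. In Nnmt-202 a stretch of 131 bases is spliced out at that point, which is not a multiple of 3, and the annotated protein ends after 157 residues. The difference lies 306 bases from the 3′ end of Nnmt-202, so a read needs to cover little more than that to tell the forms apart.

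The level of Nnmt was 18.8 RPM (12.9 to 26.6) in control RNA and 243 (217 to 273) after cold. The cold library was thus the high one, and the ranges did not come near each other. The ratio was 11.4 (7.91 to 17.0), or 3.49 on the log2 scale. It placed Nnmt at rank 15 from the top of 7529 genes and at rank 4 among the 2677 genes with 100 or more summed reads. Across 3 other library scalings, the use of 1 transcript or of coding transcripts alone, the ratio was 11.2 to 12.9.

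Both coding forms of Nnmt were higher in the cold library. Nnmt-201, the full enzyme, had 28 control and 259 cold reads, which was 87.5% of the gene's reads in each (71.0 to 96.5 and 83.2 to 91.0). Nnmt-202 had 2 and 22 reads. Its share of the reads of these 2 forms was 6.67% (0.818 to 22.1) and 7.83% (4.97 to 11.6), so a change in this splice choice was not detectable at this depth. The forms not annotated as coding had few reads. Nnmt-204, which keeps an intron, had 1 and 8, Nnmt-203 had 0 and 5, and Nnmt-205 had 1 and 2. In the control the limit that 0 reads allow for Nnmt-203 is 3 reads.

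**Figure D2:**
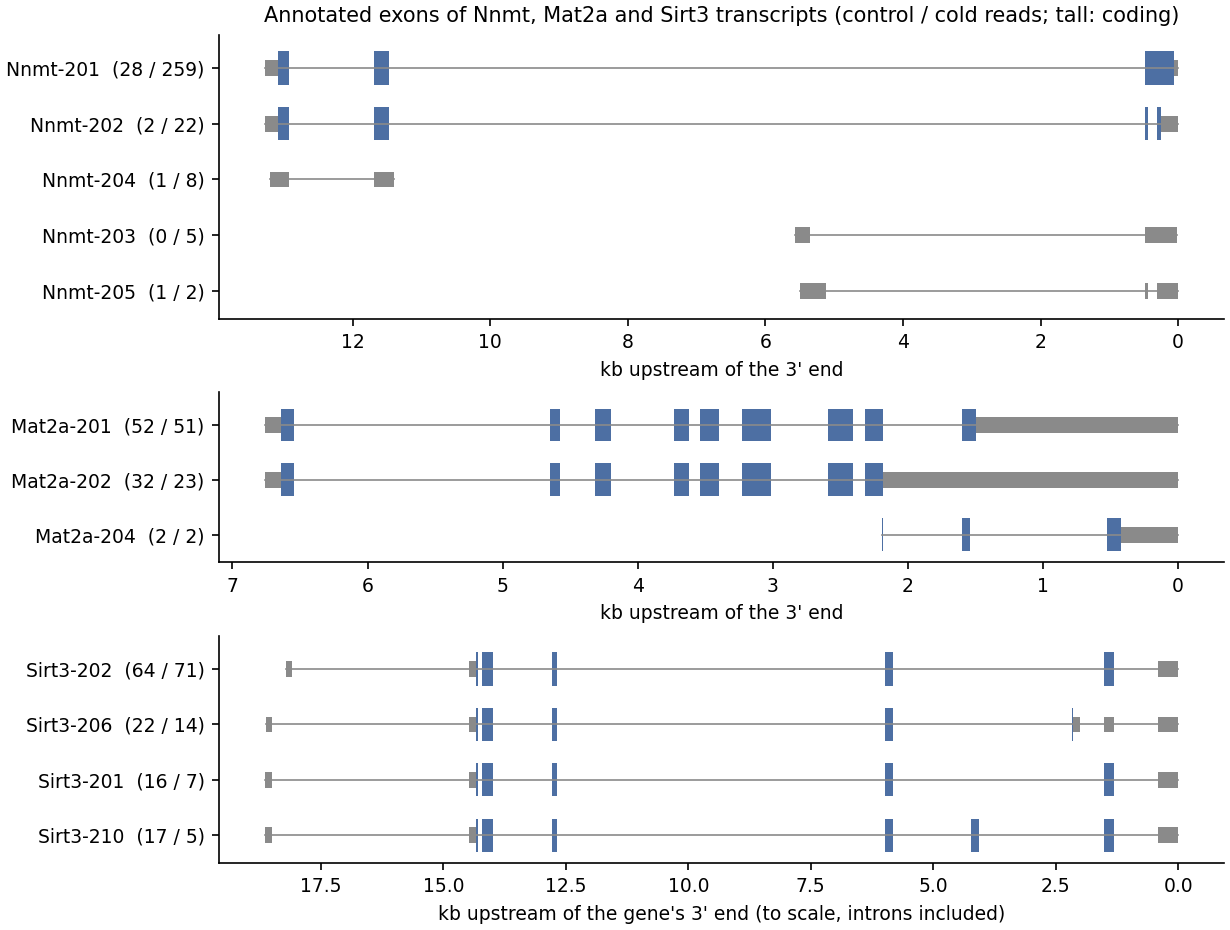
Annotated exons of transcripts of Nnmt (5), Mat2a (3) and Sirt3 (the 4 with the most reads), drawn to scale against the distance in kb from the gene's 3′ end, with coding exons tall and blue and the rest low and grey. The numbers after each name are control and cold reads, and the rows with the most reads of each gene are Nnmt-201 (28 and 259), Mat2a-201 (52 and 51) and Sirt3-202 (64 and 71).

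Ratios taken within a library need no scaling. Nampt reads outnumbered Nnmt reads in the control, and the reverse was found after cold, with 0.102 (0.0683 to 0.146) and 1.47 (1.22 to 1.76) Nnmt reads per Nampt read. The ratio of Nnmt to Mat2a, which supplies its methyl donor, was 0.372 (0.240 to 0.564) and 3.89 (3.02 to 5.08). Against Ahcy, which clears its product, it was 1.03 (0.610 to 1.75) and 18.5 (11.2 to 32.8). None of these pairs of ranges overlapped. Nnmt made up 4.84% (3.33 to 6.77) of the 661 control reads of the 8 genes and 40.0% (36.4 to 43.6) of the 740 cold reads. The share of Nampt was 47.7% (43.8 to 51.5) and 27.3% (24.1 to 30.7). The totals include 32 and 296 Nnmt reads, so more Nnmt reads lower this share even where Nampt reads stay the same. The scaled ratio of Nampt itself was 0.791 (0.659 to 0.947).

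Levels were compared between genes as RPM divided by transcript length in kb. On that scale, Sirt3 (48.8) and Nampt (41.4) led in the control. Nnmt (19.0) and Mat2a (18.5) followed, then Nadk2 (9.44), Ahcy (7.18), Nmnat3 (4.50) and Nnt (1.42). Sirt3 and Nampt did not differ beyond counting error, nor did Nnmt and Mat2a, Nadk2 and Ahcy, or Ahcy and Nmnat3. In the cold library Nnmt was first at 244 and was 4.44 times (3.52 to 5.64) the next, Sirt3, at 55.0. Nampt (37.9), Mat2a (23.3) and Nadk2 (8.05) followed in the order of the control. Ahcy (5.18), Nnt (2.68) and Nmnat3 (1.90) came last, and from Nadk2 down no gene differed from the next beyond counting error. Nanopore reads start at the 3′ end whatever the transcript length, so division by length lowers long transcripts such as that of Nampt on this scale. The order is thus not one of molecules. By reads Nampt came before Sirt3 in both libraries, with 315 against 122 in the control and 202 against 97 after cold. In the cold library Nnmt had 1.47 (1.22 to 1.76) reads per Nampt read.

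The 5 genes nearest to Nnmt in log2 ratio, over 2 libraries and 2676 other genes with 100 or more summed reads, were Cdkn1a, Slc25a34, Atp1b1, Adcy3 and Mb. Their reads were 28 and 222 for Cdkn1a, an inhibitor of cyclin-dependent kinases, and 11 and 140 for the mitochondrial carrier Slc25a34. Atp1b1, a sodium pump subunit, had 16 and 109, and the adenylyl cyclase Adcy3 had 176 and 973. Mb, the myoglobin of muscle, had 27 and 142. Their log2 ratios were 0.23 to 0.82 away from that of Nnmt. With 1 value per condition such likeness is a single distance and not a pattern.

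Markers of other cells are given beside Nnmt, whichever way they moved. Over all genes that passed the minimum, the interval lay above 1 for 11.3% and below 1 for 11.3%. Muscle markers were higher in the cold library for 20 of 20 genes, and none was at 0 in either library. Acta1, the actin of muscle fibres, had 145 and 550 reads, and Myh7, a slow myosin, had 3 and 42. Of 7 white adipocyte markers 4 passed the minimum. All 7 together took 0.0117% of control and 0.0341% of cold reads. Of the 4, 3 were higher (Retn, Npr3 and Nnat) while Lep, the hormone leptin, was lower with 36 and 5 reads. Npr3, a natriuretic peptide receptor, had 86 and 260 reads and Nnat had 1 and 22. Hoxc8 had 5 and 9 reads, and Hoxc9 and Tcf21 were at 0 in both. Fibroblast markers took 0.0241% and 0.0262%, with Dcn higher and Col3a1 lower of 6 that passed. The interval of Dcn held 1 with DESeq2 size factors (1.28, 0.987 to 1.67), and that of Col3a1 held 1 with total counts (0.798, 0.578 to 1.09). Endothelial markers took 0.0452% (0.0421 to 0.0485) and 0.0676% (0.0631 to 0.0724), and of 10, all of which passed, Cdh5, Gpihbp1 and Eng had an interval above 1 and none had one below. Eng, a coreceptor of endothelium, had 142 and 180 reads and a ratio of 1.56 (1.25 to 1.96). Smooth muscle and pericyte markers took 0.0156% and 0.0179%. Of 5 that passed, Tagln, a protein bound to actin, was the 1 with an interval above 1 (2.02, 1.20 to 3.47). Rgs5, the most read of them, had 154 and 97 reads and a ratio of 0.777 (0.596 to 1.01). With DESeq2 size factors the interval of Rgs5 lay below 1 (0.762, 0.585 to 0.989). Macrophage markers took 0.00713% and 0.0115%. Of 4 that passed, Lyz2 and C1qa had an interval above 1, and the interval of the other 2 held 1. C1qb had 17 and 22 reads (1.60, 0.809 to 3.20), and C1qc had 21 and 13 (0.763, 0.351 to 1.60). Markers below the minimum went both ways, such as Cd68 with 9 and 5 reads and Csf1r with 7 and 10. The part of skeletal and smooth muscle, white adipocyte, fibroblast, endothelial and macrophage RNA in the Nnmt difference was not tested. All 6 hepatocyte markers, Alb among them, had 0 reads in both libraries, which allows up to 0.000177% of control and 0.000247% of cold reads for each gene.

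**Figure D3:**
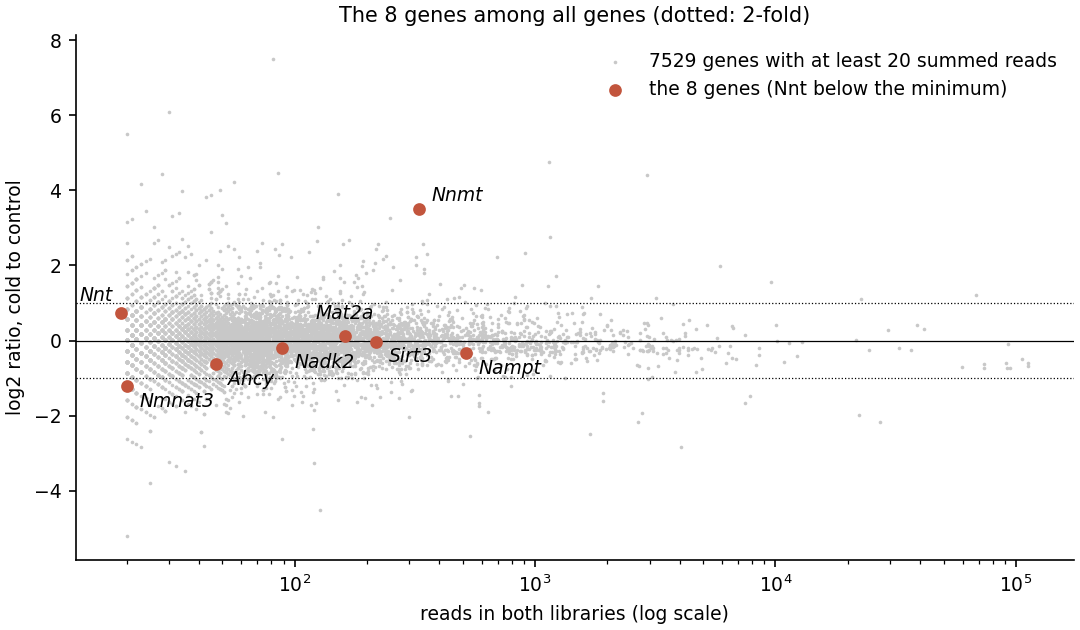
Log2 ratio of cold to control against the reads summed over both libraries (log axis) for 7529 genes with 20 or more reads (grey) and the 8 genes (red), with dotted lines at 2-fold. Nnmt, at 328 reads and a log2 ratio of 3.49, lies near the upper edge of the grey cloud at rank 15. The other 7 have smaller log2 differences. Nmnat3, with 20 reads, is at the left edge of the cloud, and Nnt, with 19, is just outside it.

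Mat2a encodes the catalytic subunit of the methionine adenosyltransferase that makes SAM outside the liver. The gene lies on chromosome 6 (minus strand, 72432799 to 72439558). The control held 86 Mat2a reads, 50.6 RPM (40.5 to 62.5), and the cold library 76, or 62.5 RPM (49.3 to 78.3). The ratio was 1.09 (0.790 to 1.50). No difference was detectable at this depth, and one as large as that of Nnmt lay outside the interval. As background, cells sense SAM through this transcript. The methyltransferase METTL16 binds the sequence UACAGAGAA in hairpins of the Mat2a 3′ UTR, and removal of the last intron responds to the SAM supply. Both features are therefore shown. The first pair of sequences is the end of the next to last exon (chr6:72434981-72434995, minus strand) with what follows in capitals, which is the last exon (chr6:72434381-72434395) in Mat2a-201 and the kept intron (chr6:72434966-72434980) in Mat2a-202.
Mat2a-201: tggggtcattgtcagGGATCTGGATCTGAA
Mat2a-202: tggggtcattgtcagGTAAAGATGGTAAAA
The 5 matches to TACAGAGAA, the same word in DNA letters and in capitals here, lie in the 3′ UTR and are given in order from its 5′ side. They cover chr6:72434234-72434263, chr6:72433450-72433479, chr6:72433271-72433300, chr6:72433156-72433185 and chr6:72432937-72432966, all on the minus strand.
Site 1: tggcgtaggtTACAGAGAAgccttcaagct
Site 2: ccttgtgataTACAGAGAAgtcacagggca
Site 3: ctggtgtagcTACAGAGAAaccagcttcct
Site 4: atggcgtaagTACAGAGAAgccatcacctc
Site 5: gctggtgtggTACAGAGAAgccagcttgtt
The word was searched on the transcript strand in the last 1494 bases, the length of the Mat2a 3′ UTR. For each gene 1 coding transcript of at least that length was used. The word was present in 373 of 16927 such genes (2.20%), and Mat2a was the 1 gene with 5 matches. Nnmt has no coding transcript that long and was not searched, and the remaining members held none in this window. A match is a description of letters and not of a bound site.

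The form with the last intron spliced out, Mat2a-201 (395 residues), had 52 control and 51 cold reads. Mat2a-202, which keeps the 585 bases of that intron and is annotated as a coding form of 362 residues, had 32 and 23. Its share of the reads of both forms was 38.1% (27.7 to 49.3) in control RNA and 31.1% (20.8 to 42.9) after cold. The ranges overlapped widely. Over all Mat2a reads the difference in its share was -6.95 percentage points (-20.9 to 7.62). The forms part 1597 bases from the 3′ end of Mat2a-201, and a read shorter than that fits both. Their assignment is not described in the sources used here. The short Mat2a-204 had 2 and 2 reads. On the opposite strand, Particl shares 508 exon bases with Mat2a and had 13 and 4 reads. Whether strand was used in counting is not described there either, and the part of Particl in the Mat2a counts was not tested.

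Ahcy encodes the hydrolase that splits S-adenosylhomocysteine, the by-product of Nnmt and other methyltransferases, into adenosine and homocysteine. The gene occupies 155059310 to 155074497 on the minus strand of chromosome 2. It had 31 control and 16 cold reads, all on Ahcy-201 (432 residues), or 18.3 (12.4 to 25.9) and 13.2 (7.52 to 21.4) RPM. The cold level was the lower one but the ranges overlapped, with a ratio of 0.636 (0.325 to 1.20). The pseudogenes Gm4737 and Gm9826 share 93.2% and 77.9% of their 31-base words with Ahcy and had 0 and 1 and 0 and 0 reads, so at most 1 read was counted there.

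The list of the methionine cycle and homocysteine use holds 15 genes with Mat2a and Ahcy, of which 8 passed the minimum. Its median log2 ratio was -0.11, and -0.00 over all genes. No interval lay above 1, and 1 of the 8, that of Ahcyl1, an Ahcy-like protein that binds the IP3 receptor, lay below it. Over all genes 11.3% lay above 1 and 11.3% below. Ahcyl1 had 428 and 245 reads and was 1.42-fold lower in the cold library (1.21 to 1.66). Mat2b, the regulatory partner of Mat2a, had 84 and 85 reads and a ratio of 1.25 (0.912 to 1.71), which became 1.41 (1.03 to 1.93) with total-count scaling. Adk, which uses the adenosine made by Ahcy, had 84 and 54 reads. The liver form Mat1a and Bhmt were at 0 in both libraries, and Cbs and Cth, which turn homocysteine into cysteine, had 0 and 1 and 1 and 3 reads.

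Other methyltransferases that use SAM on small molecules had lower ratios than Nnmt. Of 12 genes on that list 8 passed, and the next highest of these was Inmt, an indole methyltransferase, with 8 and 14 reads and a ratio of 2.16 (0.845 to 5.94). Coq3, of ubiquinone synthesis, had 64 and 76 reads and was 1.46-fold higher (1.04 to 2.08). Hnmt, which methylates histamine, had 26 and 8 and was 2.64-fold lower in the cold library (1.16 to 6.74). Gnmt, a glycine methyltransferase that is abundant in liver, had 3 and 10 reads, below the minimum. Without Nnmt the median log2 ratio of the 7 that passed was 0.20.

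Decarboxylated SAM feeds polyamine synthesis, and spent SAM is recycled by methionine salvage. Of 16 genes on this list 13 passed, with 2 intervals above and 1 below 1, shares near the 11.3% of all genes in each direction. The median log2 ratio was -0.15. Odc1, which makes putrescine, had 96 and 144 reads and was 1.85-fold higher (1.42 to 2.42). Sat1, which acetylates polyamines, had 66 and 86 and was 1.61-fold higher (1.15 to 2.25), although from its most abundant transcript alone its interval held 1 (1.43, 0.904 to 2.26). Oaz1, an antizyme that blocks Odc1, had 948 and 627 and was 1.23-fold lower (1.11 to 1.36), and with total-count scaling its ratio was 0.924 (0.834 to 1.02). Amd1, which makes decarboxylated SAM, had 37 and 17 reads and a ratio of 0.567 (0.299 to 1.03).

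Nampt encodes the rate-limiting enzyme of NAD salvage, which turns nicotinamide into nicotinamide mononucleotide and so competes with Nnmt for the same substrate. Its place is the plus strand of chromosome 12, from 32819545 to 32853349. It was the most read of the 8 genes in the control, with 315 reads or 185 RPM (166 to 207), against 202 reads or 166 RPM (144 to 191) after cold. Scaled, it was 1.26-fold lower in the cold library (1.06 to 1.52), a log2 ratio of -0.34, which 25.5% of all genes lay below. The call held with DESeq2 size factors (0.776, 0.647 to 0.929) and not with either scaling by totals. With total counts the ratio was 0.896 (0.747 to 1.07), and without mitochondrially encoded genes in the totals it was 0.867 (0.723 to 1.04). Nearly all reads, 314 and 200, came from Nampt-201, which encodes 491 residues, and Nampt-203, annotated as a target of nonsense-mediated decay, had 1 and 2.

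Nmnat3 encodes the adenylyltransferase that completes NAD in mitochondria. It lies on the plus strand of chromosome 9, from 98287435 to 98420438, on the chromosome of Nnmt but far from it. It had 15 control and 5 cold reads, or 8.83 (4.94 to 14.6) and 4.11 (1.34 to 9.60) RPM. The point value was 2.43-fold lower in the cold library, with a range from 0.841 to 8.56 that held 1, so the direction was not settled at this depth. Nmnat3-201 (245 residues) had 14 and 5 of these reads and Nmnat3-203 had 1 and 0. Nmnat1, the nuclear enzyme of the same step, had 16 and 15 reads. Nmnat3 reads per Nmnat1 read were 0.938 (0.432 to 2.02) for control RNA and 0.333 (0.0948 to 0.965) after cold, ranges that overlap.

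The NAD salvage list holds 10 genes, all with reads, of which 5 passed. Nampt was the 1 gene with an interval free of 1, where 11.3% of all genes lay above 1 and 11.3% below. The median log2 ratio was -0.34 with Nampt and Nmnat3, and 0.06 over the 3 others. Pnp, which frees nicotinamide from its riboside, had 155 and 131 reads and a ratio of 1.04 (0.820 to 1.32). Nt5c2 had 39 and 20 reads and a ratio of 0.632 (0.349 to 1.11). For Nt5c2 the ratio was 0.452 (0.204 to 0.928) from protein-coding transcripts and 0.154 (0.0172 to 0.656) from the most abundant one alone. The riboside kinases Nmrk1 and Nmrk2 had 6 and 3 and 0 and 4 reads. Most genes of the routes that make NAD from nicotinic acid and tryptophan had few or no reads. Naprt, the first enzyme for nicotinic acid, had 36 and 25 reads and was the 1 of 11 that passed, with a ratio of 0.856 (0.493 to 1.47). Nadsyn1 had 11 and 3, and Qprt, Ido2, Kmo, Kynu and Haao were at 0 in both libraries. Aox1, an oxidase that acts on methylnicotinamide, had 46 and 22 reads. Its ratio was 0.590 with an interval that just held 1, and 0.579 (0.332 to 0.982) with DESeq2 size factors.

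**Figure D4:**
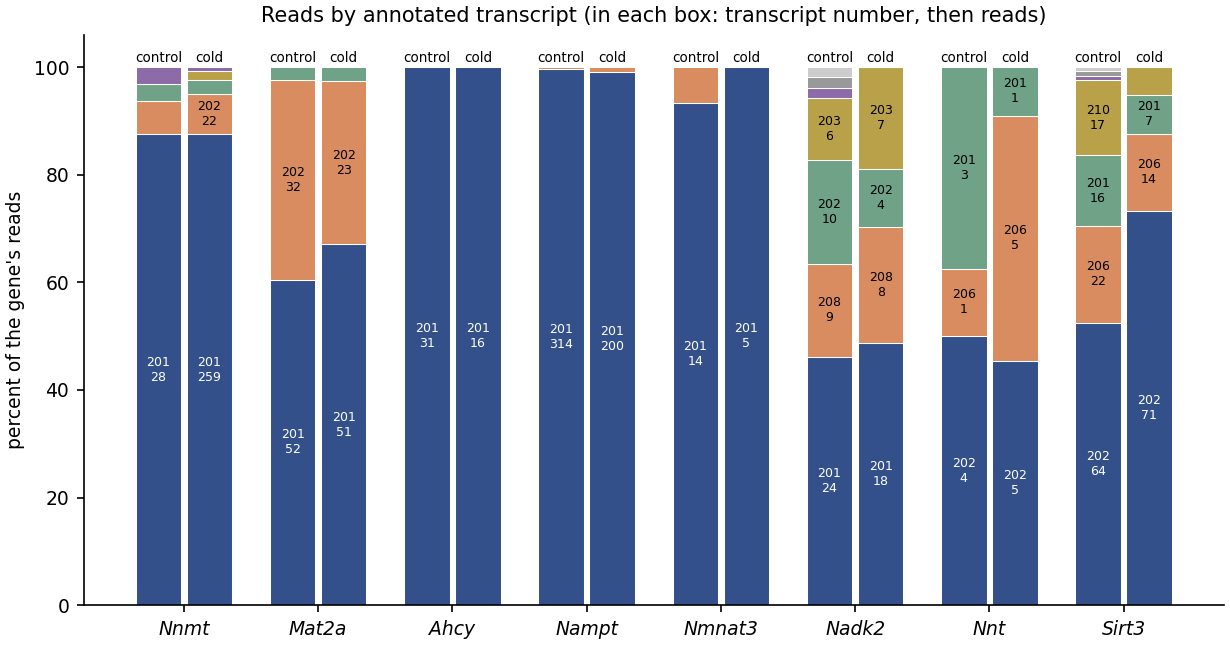
Share of each gene's reads, in percent, carried by each of its annotated transcripts in the control and cold library, with the transcript number and its reads printed in the larger boxes. Sirt3-202 took 52.5% of control and 73.2% of cold Sirt3 reads, while Nnmt-201 took 87.5% of Nnmt reads in both.

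Nadk2 encodes the mitochondrial NAD kinase, which makes NADP inside the organelle. The gene spans 9071260 to 9110891 on the plus strand of chromosome 15. It had 52 control and 37 cold reads, which is 30.6 (22.9 to 40.2) and 30.4 (21.4 to 42.0) RPM. The levels were nearly the same, and the ratio was 0.877 (0.560 to 1.36). Its reads were spread over 7 of 13 annotated transcripts, 4 of which had 4 or more reads in each library. Nadk2-201 (452 residues) had 24 and 18 reads. Nadk2-202 (401 residues) had 10 and 4, and Nadk2-203 (430 residues), which lacks an exon of 66 bases, had 6 and 7. Nadk2-208, which has no annotated frame, had 9 and 8. Inside the gene Nadk2-208 differs from Nadk2-201 by 1 base, and the stretch is shown because a split of nanopore reads by 1 base is uncertain. The first 15 bases are chr15:9100131-9100145 on the plus strand, and the capital is the base that Nadk2-201 leaves out.
Nadk2-201: gatgacggcccatgggagaagcagaagagc
Nadk2-208: gatgacggcccatggGgagaagcagaagag
The annotated end of Nadk2-208 also lies further downstream. The 2 forms together had 33 and 26 reads, a ratio of 0.972 (0.558 to 1.67). Nadk, the kinase of the cytosol, had 254 and 248 reads and was 1.20-fold higher (1.01 to 1.44), though with DESeq2 size factors its interval held 1 (1.18, 0.988 to 1.41). Reads of Nadk2 per read of Nadk were 0.205 (0.149 to 0.277) and 0.149 (0.103 to 0.211), which overlap.

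Nnt encodes the transhydrogenase of the inner mitochondrial membrane, which uses the proton gradient to make NADPH from NADH. It lies on the minus strand of chromosome 13, from 119335448 to 119408997, under 2 gene identifiers whose reads were summed. As background, the C57BL/6J strain of the reference genome carries a deletion in Nnt that C57BL/6N mice lack, so reads of these mice meet an annotation that misses part of the gene. Its effect on the counts was not tested. Nnt had 8 control and 11 cold reads, 4.71 (2.03 to 9.28) and 9.05 (4.52 to 16.2) RPM, and the ranges overlapped. The ratio was 1.70 (0.621 to 4.86), from too few reads to give a direction. Nnt-202 and Nnt-206, both of 835 residues, had 4 and 5 and 1 and 5 reads, and Nnt-201, which lacks 342 bases, had 3 and 1.

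A further list holds 14 genes of dehydrogenases that can make NADPH and of related enzymes, of which 10 passed. The interval lay below 1 for 4, above 1 for 1 and held 1 for 5, where 11.3% of all genes lay on either side. Their median log2 ratio was -0.35. Me1, the malic enzyme of the cytosol, had 1513 and 402 reads and was 3.05-fold lower (2.73 to 3.42). G6pdx and Pgd, of the pentose phosphate pathway, had 347 and 195 and 935 and 538 reads. G6pdx was 1.44-fold lower (1.21 to 1.73) and Pgd was 1.41-fold lower (1.27 to 1.57). Idh2, the mitochondrial isocitrate dehydrogenase that uses NADP, had 274 and 155 reads and was 1.43-fold lower (1.17 to 1.76). Its counterpart in the cytosol, Idh1, had 228 and 179 and a ratio of 0.968 (0.792 to 1.18). Aldh1l1, a folate dehydrogenase, had 57 and 72 and was 1.56-fold higher (1.09 to 2.25), and from its most abundant transcript alone its interval held 1 (0.972 to 2.52).

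Sirt3 encodes the main deacetylase of mitochondria, which consumes NAD and releases nicotinamide. It lies on the minus strand of chromosome 7, from 140863666 to 140882309. It had 122 control and 97 cold reads, 71.8 (59.7 to 85.8) and 79.8 (64.7 to 97.3) RPM, with ranges that overlapped. The ratio was 0.980 (0.743 to 1.29) and the log2 ratio -0.03. The sign depended on the scaling, at 0.15 with total counts, 0.10 with totals that leave out mitochondrially encoded genes and -0.05 with DESeq2 size factors, and the interval held 1 in each.

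The share of Sirt3 reads on its main transcript was higher in the cold library. Of the 30 listed transcripts of the 8 genes, 2 had a difference of share whose interval left out 0, Sirt3-202 and Sirt3-210, and the intervals were not widened for the number compared. The same held for 4.48% of 20417 listed transcripts of all genes with 20 or more summed reads, reads in both libraries and more than 1 listed transcript, a set that holds 26 of the 30. A count of 2 is near that share, and nothing is read from it. Sirt3-202 (257 residues) had 64 control and 71 cold reads, or 52.5% (43.2 to 61.6) and 73.2% (63.2 to 81.7) of the gene's reads. The difference was 20.7 percentage points, with a Newcombe interval of 7.83 to 32.5. Sirt3-201, which has another first exon and the same 257 residues, had 16 and 7. Sirt3-206 carries an added exon of 161 bases and is annotated as a target of nonsense-mediated decay, and had 22 and 14 reads. Sirt3-210 carries an added exon of 156 bases in frame (309 residues) and had 17 and 5, a difference of -8.78 points (-16.6 to -0.667). Put together, a grouping made after the values were seen, the forms with an added exon had 39 of 122 and 19 of 97 reads. That is 32.0% (23.8 to 41.0) and 19.6% (12.2 to 28.9), a difference of -12.4 points (-23.4 to -0.597). Like Sirt3-201, these forms start upstream of Sirt3-202, at 140882289 for Sirt3-206 and 140882298 for Sirt3-210 against 140881869. The added exon and the other start therefore cannot be told apart in this difference. Sirt3-205, Sirt3-207 and Sirt3-208 had 1 control and 0 cold reads each. Sirt3-201 parts from Sirt3-202 1309 bases from the 3′ end and the added exons within 628 bases of it, so short reads tell the added exons more readily than the first exons. Read lengths were not analysed here. Ric8a and Psmd13, on the opposite strand, share 418 and 342 exon bases with Sirt3 and had 31 and 22 and 56 and 61 reads. Their part in the Sirt3 counts was not tested.

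Of 7 sirtuins 5 passed, with no interval free of 1, where 11.3% of all genes lay above 1 and 11.3% below. With 5 genes, nothing is read from that count. The median log2 ratio was -0.03, the value of Sirt3, and -0.36 over the 4 others. Sirt2 had 104 and 86 reads and a ratio of 1.02 (0.757 to 1.37). Sirt5, which removes succinyl groups in mitochondria, had 26 and 31, and Sirt1, the nuclear deacetylase, had 15 and 5. Sirt7 had 21 and 10. From the most abundant transcript alone, the intervals of Sirt1 (0 to 0.856) and Sirt7 (0 to 0.722) lay below 1. Among 17 PARPs and NAD glycohydrolases, the other consumers of NAD, 7 passed, with 0 intervals above 1 and 1 below. Their median was -0.30. Parp1, the main nuclear PARP, had 55 and 61 reads and a ratio of 1.37 (0.934 to 2.01), which became 1.55 (1.06 to 2.27) with total counts. Parp10 had 26 and 8 reads and was 2.64-fold lower (1.16 to 6.74). From its protein-coding transcripts alone the ratio was 0.528 (0.166 to 1.46). Cd38, a glycohydrolase of immune cells and endothelium, had 8 and 7 reads.

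Both carriers of NAD that passed the minimum were higher in the cold library. Slc25a17, a peroxisomal carrier of NAD and CoA, had 157 and 336 reads and was 2.64-fold higher (2.18 to 3.21). Slc25a51, the mitochondrial NAD transporter, had 500 and 529 and was 1.30-fold higher (1.15 to 1.48). Naxd, which repairs hydrated NADH and NADPH, had 80 and 41 and was 1.58-fold lower (1.07 to 2.37), a call that total counts did not give (0.716, 0.479 to 1.06). Of the 7 genes of transport and repair 6 passed, with a median log2 ratio of 0.17. Their intervals lay above 1 for 2 and below 1 for 1, beside 11.3% of all genes in each direction.

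**Figure D5:**
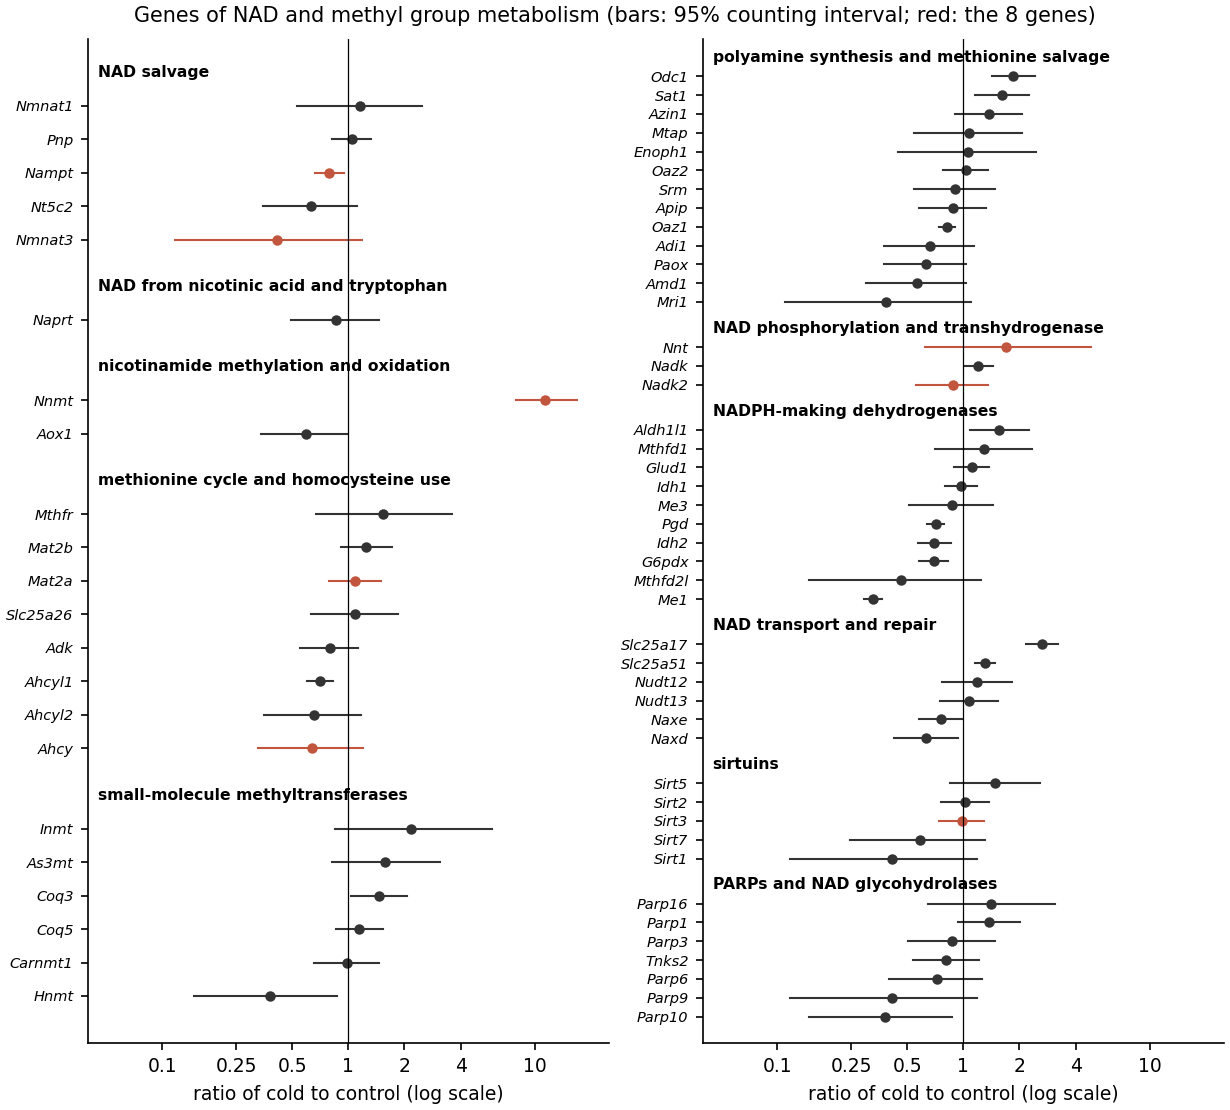
Ratio of cold to control (log axis) with its 95% counting interval for the genes of each list that passed the minimum of 20 summed reads, except 1 that is not shown, and for Nnt, with the 8 genes in red and the vertical line at 1. Nnmt lies alone to the right of 10, Me1 is the lowest point at 0.328, and most bars cross the line.

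In all, the lists held 108 genes besides the 8, of which 97 had reads and 59 passed. Their intervals lay above 1 for 7 genes (11.9%) and below 1 for 10 (16.9%), beside 11.3% in each direction over all genes. Slc25a17 was at least 2-fold higher, and Hnmt, Me1 and Parp10 were at least 2-fold lower. The median log2 ratio was -0.15. With total counts 11 lay above 1 and 8 below, while over all genes 1364 lay above and 467 below. With DESeq2 size factors 6 lay above and 12 below, and over all genes 778 and 941.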

How the data were processed

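Poly(A)+ RNA of brown adipose tissue (500 ng a library) was sequenced with the SQK-RNA002 direct RNA kit, per the labels' protocols, which speak of another fat depot in the extraction step. The authors deposited 1 table a library, with the count of reads per transcript, not normalized and with transcripts at 0 left out. The submitters' processing notes name minimap2 and GRCm38. Not given in the sources used here: versions, annotation release and the handling of reads that match several transcripts. Transcripts were matched by identifier without version to GENCODE mouse M21 (GRCm38, coordinates from 1). Those without a match held 0.0571% of control and 0.0652% of cold reads. Sequences come from the M21 transcript file.

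Reads were summed to genes, and library sizes were scaled by edgeR 4.0.16 TMM factors (0.940 and 1.06). Ratios have exact Clopper-Pearson 95% intervals of the cold share, and 0.5 reads were added as a prior before log2. Differences of shares have Newcombe intervals. A count of 0 was given a limit of 3 reads. With 1 library a group no test was possible. Calculations were tested on simulated data. Alternatives were total counts, total counts without mitochondrially encoded genes, DESeq2 1.42.0 size factors, the most abundant or coding transcripts alone, a prior of 2 reads and a minimum of 1 or 100 reads. Named genes were the 8, list genes with an interval free of 1 and a few others for their role, up to 4 markers a list, and the 5 nearest to Nnmt. Genes at 0, of low counts or beyond that number were chosen after their values were seen. The 8 genes and all lists were chosen with earlier results of these data known. The values of 1 list gene are not reported here, although the counts and medians of its list include it.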

Additional observations from a re-analysis of the deposited data

How the results depend on the processing

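Nnmt had an interval above 1 in each alternative run, with log2 ratios of 3.42 to 3.67. The prior of 2 reads enters the log2 value and not the interval, so that run could not change a call. With total counts the median log2 ratio of all genes shifted to 0.17, and 522 genes were at least 2-fold higher and 189 lower, so that 73.4% of these calls were higher, against 50.7% with TMM. That share was 67.4% once mitochondrially encoded genes were left out of the totals (median 0.13) and 46.9% with DESeq2 size factors (median -0.03). With a minimum of 100 summed reads 93 were higher and 63 lower. The number of the 8 genes with an interval below 1 was 0 with total counts and 0 without mitochondrially encoded genes, where Nampt held 1. Other pathway genes with an interval above 1 numbered 11 with total counts. The log2 ratio of Sirt3 was 0.45 from Sirt3-202 alone and 0.06 from coding transcripts alone. The copies of Ahcy, added after seeing the data, gave it a ratio of 0.676 (0.351 to 1.26). Of 1109 values recomputed, 950 were classed as the same, 124 moved, 18 gained and 17 lost a call, and 0 called values turned. The 950 include 128 gene ratios with a prior of 2 reads, whose intervals are those of the main run. For ratios and shares, the same meant that a call kept its side and an uncalled value its direction. For counts of genes and medians of lists, it meant a value close to the main one. No paired analysis was possible because each group was 1 library. Depth limited Nnt, Nmnat3, Ahcy and each rare transcript.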
